A study of Mus musculus with 18 samples.

Results

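The 38 genes described here encode the proteins that carry glucose into a heart cell, split it to pyruvate, exchange pyruvate with lactate and admit pyruvate to the mitochondrion. They were taken from a list of gene symbols, and all 38 are among the 30583 genes of the count table. All 38 also passed the filter on low counts, which kept 16311 genes. RNA sequencing was done on heart tissue of 18 male C57BL/6JR mice aged 12 weeks, with no allele or transgene named, in 6 groups of 3. In 5 groups the left anterior descending coronary artery was tied under pentobarbital to cause a myocardial infarction, and the mice were killed under isoflurane at 1 of 5 times: 72 h, 24 h, 6 h, 1 h or 10 min later. The sham group, labelled 0 h, had the operation with the suture passed and left untied. The ligature was not described as released, and the labels do not say whether tissue of several mice was pooled, so p-values measure the spread between these libraries. The 5 comparisons with sham all use the same 3 sham libraries and are therefore not independent of each other.

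Glycolysis turns glucose into pyruvate in the cytosol and yields a little ATP without oxygen. In the healthy heart most ATP comes from fatty acid oxidation, and the muscle takes up lactate as a fuel. When oxygen is lacking, pyruvate is reduced to lactate and exported, and pyruvate dehydrogenase, the gate to the mitochondrial citric acid cycle, is held back by the pyruvate dehydrogenase kinases. Several steps have a form typical of heart or skeletal muscle and another form found in most tissues.

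Libraries held 18.2 to 25.06 mega counts. The labels name myocardium of the infarcted left ventricle as the source and list the cell type as cardiomyocytes, with no step that separates cells. Markers of other cells were present in every library, with no marker at 0, so the values are those of mixed tissue. Levels are CPM, read counts relative to the library total after TMM scaling, a scaling that sets the bulk of genes level between libraries. The summed level of 8 cardiomyocyte markers was 66247 to 71531 CPM in sham, 58474 to 69454 at 6 h, 28784 to 45101 at 24 h and 17515 to 22771 at 72 h. The number of these markers called lower was 0 of 8 at 6 h, 6 of 8 at 24 h and 8 of 8 at 72 h, and their median log2 fold change at 72 h was -1.73. The 6 neutrophil markers summed to 2.31 to 3.63 CPM in sham, 103 to 757 at 6 h, 36.1 to 663 at 24 h and 51.4 to 61.5 at 72 h. The 6 macrophage markers went from 248 to 281 CPM in sham to 534 to 626 at 24 h and 3033 to 4014 at 72 h. The 6 fibroblast markers went from 686 to 736 CPM in sham to 7973 to 10233 at 72 h. In whole tissue, fewer cells of a type and less RNA per cell cannot be told apart. Replicate 1 at 6 h and replicate 3 at 24 h stood apart from their groups by their neutrophil sums of 757 and 663 CPM, and replicate 3 at 24 h also by the lowest cardiomyocyte sum of its group, 28784 CPM. Results that rest on these libraries are given with and without them.

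In sham hearts heart and muscle forms led the list when levels were divided by exon length. The length used, implied by the deposited FPKM, was 1570 bases for Ldhb and 3310 for Ldha, and comparisons between genes depend on it. Without length scaling, mean CPM in sham was 1982 for Aldoa and 1391 for Ldhb. Per kilobase of exon, Ldhb, the heart subunit of lactate dehydrogenase, stood first at 886 CPM per kb, followed by Eno3 (muscle enolase) at 728, Pgam2 (muscle phosphoglycerate mutase) at 725, Aldoa (aldolase A) at 566 and Pfkm (muscle phosphofructokinase) at 388. At the other end were Hk3 at 0.314, Slc2a3 at 0.301, Eno2 at 0.275 and Aldoc at 0.0377 CPM per kb. By 72 h the order at the top was Aldoa at 246, Pkm at 240, Ldhb at 198 and Ldha at 195 CPM per kb. Neighbours in this order were not separated: in the 3 libraries at 72 h Aldoa held 271, 222 and 245 CPM per kb and Pkm 242, 256 and 223, while Ldhb held 250, 162 and 180 and Ldha 206, 201 and 178.

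A gene was called when its edgeR p-value, adjusted over all 16311 genes tested, was under 0.05. At 10 min and at 1 h, 0 of the 38 genes were called, where 0.0736% (0.0307% higher, 0.0429% lower) and 0.294% (0.288% higher, 0.00613% lower) of all genes were called. At those times 2 and 1 genes had an unadjusted p under 0.05, and DESeq2 called 1 gene at 10 min and 0 at 1 h. At 6 h, 11 genes were higher and 1 lower, beside 16.3% of all genes higher, 12.2% lower and 28.4% in either direction. At 24 h, 15 were higher and 14 lower, beside 23.7% and 20.2%, or 43.8% in all. At 72 h, 10 were higher and 22 lower, beside 34.2% and 32.2%, or 66.4% in all. As shares of the 38 genes these are 28.9% higher and 2.63% lower at 6 h, 39.5% and 36.8% at 24 h, and 26.3% and 57.9% at 72 h. For 6 h, 24 h and 72 h in turn, the median over the 38 genes was log2 0.15, 0.03 and -0.70, against -0.01, 0.01 and 0.03 over all genes. Over the whole time course 37 of 38 genes differed among groups, beside 78.4% of all genes, and the exception was Gapdh. With library totals in place of TMM these 3 medians of all genes moved to -0.12, 0.20 and 0.61, and the split became 9 higher and 3 lower at 6 h, and 14 higher and 17 lower at 72 h. Without replicate 1 at 6 h, 6 genes in place of 11 were higher at 6 h, and the calls of Hk1, Hk3, Pfkfb3, Pfkfb4 and Ldha were the ones lost. Without replicate 3 at 24 h, 11 genes in place of 15 were higher at 24 h.

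**Figure D1:**
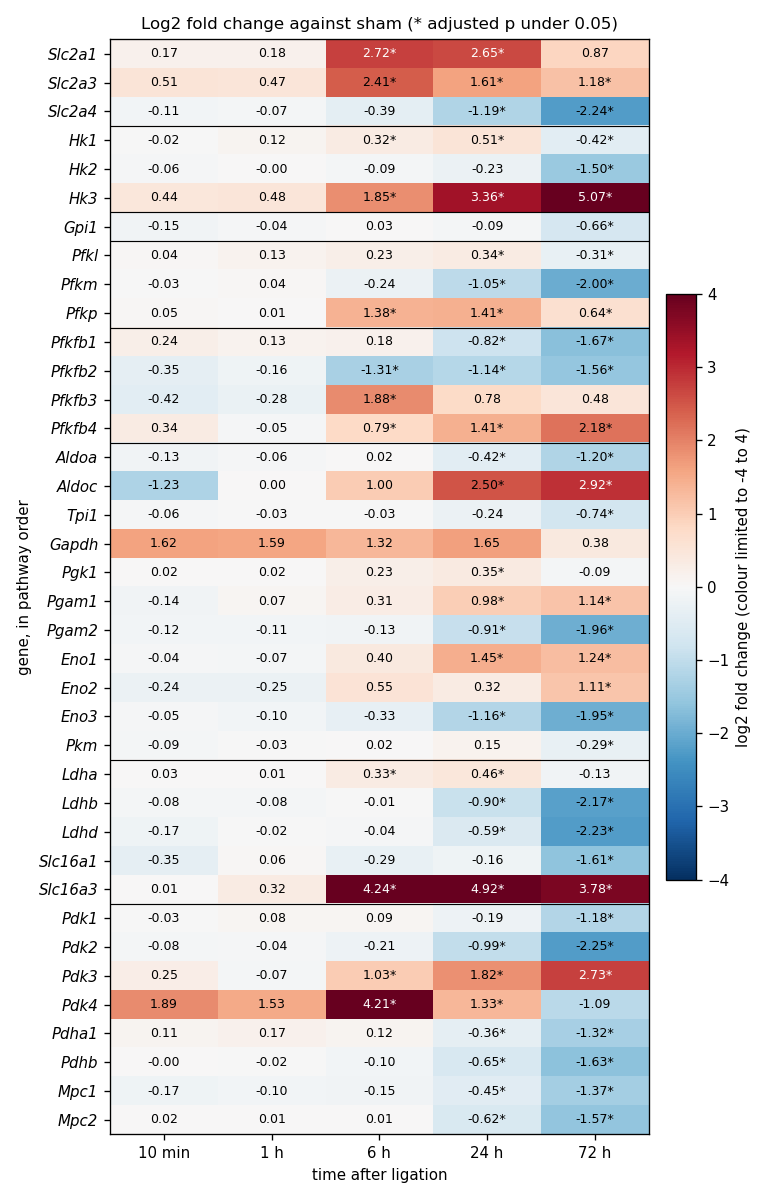
Heat map of the log2 fold change against sham of the 38 genes (rows, in pathway order with lines between steps) at the 5 times after ligation (columns). Red is higher and blue lower than sham, the number in each cell is the log2 fold change, and an asterisk marks an edgeR adjusted p under 0.05. Asterisks are absent at 10 min and 1 h, mostly red at 6 h and mostly blue at 72 h.

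Of the glucose transporters, the basal form and the high-affinity form rose at 6 h while the insulin-responsive muscle form was called lower from 24 h. Slc2a1 encodes GLUT1, the basal transporter of most tissues (ENSMUSG00000028645, GRCm38 chr4:119108711-119137983). Its level was 16.8 to 18.4 CPM in the sham libraries, 19.2 to 21.9 at 10 min and 1 h, 168, 97.5 and 84.5 at 6 h, 78.6, 49.0 and 208 at 24 h, and 31.6, 38.8 and 27.0 at 72 h. Every library after ligation lay above every sham library. The rise was 6.58-fold at 6 h (log2 2.72 ± 0.43 SE, adjusted p = 0.000496) and 6.29-fold at 24 h (log2 2.65 ± 0.43), while the 72 h difference of log2 0.87 missed the threshold (adjusted p = 0.0767). Without replicate 3 at 24 h the 24 h value of Slc2a1 was log2 1.85. Slc2a3, which encodes the high-affinity transporter GLUT3 of neurons and white blood cells, went from 2.04 to 2.28 CPM in sham to 19.1, 8.90 and 7.03 at 6 h, with log2 2.41 ± 0.47 (adjusted p = 0.00153). At 24 h it held 4.62, 2.79 and 12.8 CPM (log2 1.61, adjusted p = 0.0118), and without replicate 3 at 24 h this call was lost (log2 0.76, adjusted p = 0.106). At 72 h, with 4.20, 5.85 and 4.84 CPM, it was 2.27-fold above sham (adjusted p = 0.0353), and 6 alternatives lost that call. Slc2a4 encodes GLUT4, the transporter that insulin moves to the surface of muscle and fat cells (ENSMUSG00000018566, GRCm38 chr11:69942539-69948188). Its 3 sham libraries held 422, 394 and 382 CPM, those at 24 h 212, 204 and 107, and those at 72 h 102, 69.8 and 81.6. All libraries at 24 h and 72 h lay below all sham libraries, and the level fell 2.29-fold at 24 h and 4.73-fold at 72 h (log2 -2.24 ± 0.20, adjusted p = 3.50e-08).

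The 3 hexokinases, which trap glucose as glucose 6-phosphate, moved apart. Hk2, the insulin-responsive muscle form, held 322 to 358 CPM in sham and 273 to 353 at 6 h, with overlapping groups, and then 124, 129 and 105 CPM at 72 h, a fall of 2.83-fold (log2 -1.50 ± 0.11, adjusted p = 1.95e-09). Hk1, found in most tissues, was 186, 168 and 167 CPM in sham, rose to 255, 217 and 269 CPM at 24 h (log2 0.51 ± 0.11, adjusted p = 0.000968), and was 134, 133 and 123 CPM at 72 h (log2 -0.42). With library totals the sign of the Hk1 difference at 72 h turned, to log2 0.17. Hk3, a form of myeloid blood cells, had the greatest fold change of the 38 genes at 72 h. Its sham libraries held 1.47, 1.24 and 0.755 CPM, and those at 72 h 38.8, 36.9 and 40.1. The rise was 3.60-fold at 6 h and missed the threshold without replicate 1 of that group (log2 1.21, adjusted p = 0.0536). It was 10.3-fold by 24 h and 33.6-fold by 72 h (log2 5.07 ± 0.44, adjusted p = 8.66e-08), beside the rise of the macrophage markers given above. Exons of Hk3 overlap those of Unc5a on the other strand, and whether the counting used strand is not given in the sources used here. What part the changing cell types have in these hexokinase values was not tested.

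Phosphofructokinase commits sugar to glycolysis, and its muscle subunit fell while the platelet-type subunit rose. Pfkm held 1196, 1137 and 1110 CPM in sham, 748, 529 and 388 at 24 h, and 353, 237 and 269 at 72 h, with no overlap (log2 -1.05 at 24 h, and a 4.01-fold fall at 72 h with adjusted p = 2.52e-08). Pfkp, the platelet-type subunit, held 73.4, 57.8 and 66.5 CPM in sham, 195, 143 and 175 at 6 h, 142, 139 and 243 at 24 h, and 97.3, 107 and 104 at 72 h. Its rise was log2 1.38 ± 0.18 at 6 h (adjusted p = 4.39e-05), then 1.41 and 0.64. Its exons overlap those of Pitrm1 on the other strand, and without a stated use of strand the reads of both cannot be told apart. Pfkl, the liver-type subunit, stayed between 111 and 228 CPM in all libraries. Its call at 24 h (log2 0.34, with libraries that overlap sham) was lost under 4 alternatives and its call at 72 h (log2 -0.31) under 9, and with library totals the 72 h value was log2 0.28.

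The bifunctional PFKFB enzymes make and remove fructose 2,6-bisphosphate, the activator of phosphofructokinase. The heart form Pfkfb2 was the 1 member called lower at 6 h. Slc2a4, Pfkm, Eno3 and Slc16a1 also had all 6 h libraries below all sham libraries but were not called. How many of all genes were separated in this way was not counted. Pfkfb2 went from 42.0, 34.4 and 36.2 CPM in sham to 11.4, 17.4 and 16.3 at 6 h (log2 -1.31 ± 0.27, adjusted p = 0.00201) and 14.5, 10.2 and 13.5 at 72 h (log2 -1.56). Pfkfb3, the form with the strongest kinase activity, moved the other way at 6 h. It was 20.6, 21.8 and 21.2 CPM in sham and 128, 58.1 and 48.3 at 6 h (log2 1.88 ± 0.46, adjusted p = 0.00905), and without replicate 1 at 6 h it missed the threshold (log2 1.33, adjusted p = 0.0508). At 24 h Pfkfb3 was 23.3, 16.4 and 70.3 CPM, which overlaps sham. Pfkfb4 was higher than sham at 6 h, 24 h and 72 h, with 3.37 to 3.74 CPM in sham, 4.93 to 8.05 at 6 h and 14.7 to 17.8 at 72 h (log2 2.18 ± 0.24, adjusted p = 2.93e-07). Its 6 h call was lost under 4 alternatives, among them without replicate 1 at 6 h (log2 0.55, adjusted p = 0.157). Pfkfb1, the form of liver and skeletal muscle, fell from 8.66 to 11.2 CPM in sham to 2.34 to 4.35 at 72 h (log2 -1.67), and it overlaps Apex2 on the other strand.

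In the steps from fructose bisphosphate to pyruvate, 12 genes were measured with Gpi1, and 0 of them were called at 6 h. At 24 h 4 of these 12 were higher and 3 lower, and at 72 h 4 were higher and 6 lower, beside 23.7% higher and 20.2% lower among all genes at 24 h, and 34.2% and 32.2% at 72 h. The muscle forms fell together. Eno3 held 1325, 1239 and 1236 CPM in sham, 657, 620 and 420 at 24 h, and 415, 274 and 298 at 72 h (log2 -1.95 ± 0.16, adjusted p = 9.08e-09). Pgam2 held 642, 588 and 597 CPM in sham and 205, 121 and 145 at 72 h (log2 -1.96 ± 0.18, adjusted p = 3.19e-08). Aldoa (ENSMUSG00000030695) went from 1893 to 2133 CPM to 779 to 948 at 72 h (log2 -1.20). In each of the 3 genes all 72 h libraries lay below all sham libraries. Their partners of other tissues rose. Eno1, the enolase of most tissues, was 163, 140 and 156 CPM in sham, 298, 283 and 670 at 24 h, and 343, 389 and 353 at 72 h (log2 1.24 ± 0.23, adjusted p = 0.000148). Without replicate 3 at 24 h the 24 h value of Eno1 was log2 0.93 in place of 1.45. Pgam1, the non-muscle mutase, rose from 46.7 to 57.4 CPM in sham to 110 to 119 at 72 h (log2 1.14 ± 0.19). Eno2, the neuronal enolase, rose from 1.04 to 1.47 CPM to 2.16 to 3.34 (log2 1.11). Aldoc, the brain aldolase, rested on few reads: 1, 1 and 6 counts in sham and 29, 36 and 32 counts at 72 h (adjusted p = 0.000134).

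Steps with only 1 gene on the list, Gapdh aside, changed less. Tpi1 (triose phosphate isomerase) fell by 0.74 on the log2 scale and Gpi1 (glucose phosphate isomerase) by 0.66 at 72 h, with 407 to 492 CPM against 734 to 759 for Tpi1. Pgk1, phosphoglycerate kinase, was 391, 386 and 397 CPM in sham and 368, 396 and 341 at 72 h, which overlap (log2 -0.09, adjusted p = 0.485). Pkm, pyruvate kinase, was 1439 to 1520 CPM in sham and 1113 to 1282 at 72 h (log2 -0.29, adjusted p = 0.0385), and 9 alternatives lost this call. With library totals the 72 h differences of Tpi1 and Gpi1 shrank to log2 -0.15 and -0.07 and were not called (adjusted p = 0.138 and 0.550), and those of Pgk1 and Pkm turned to log2 0.50 and 0.30, so these small differences depend on the scaling. The count table has 1 value per gene and does not separate the PKM1 and PKM2 splice forms of Pkm.

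Gapdh, the dehydrogenase of this pathway and a common reference gene, is reported as uncertain. Its counts in the 3 sham libraries were 181, 158 and 4142, at 10 min 6602, 4874 and 99, at 1 h 3169, 2365 and 5419, at 6 h 202, 1444 and 7927, at 24 h 4871, 4475 and 5157, and at 72 h 4989, 3124 and 319. Libraries of 1 group thus differed more than the groups did. Its within-group SD on the log2 scale was 2.17, the widest among the 13193 genes that average 30 counts or more, where the median gene had 0.17. The annotation holds 93 genes whose transcripts are at least 95% identical to Gapdh over 200 bases or more. Of these, 90 have counts, which sum to 1654 to 4078 per library, and together they hold 40.82% of the counts of Gapdh and its copies. Gapdh was not called in any comparison (adjusted p = 0.840 over the time course), which says little at this spread. How reads matching several of these genes were assigned is not given in the sources used here, and the part of the copies in the spread was not tested.

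**Figure D2:**
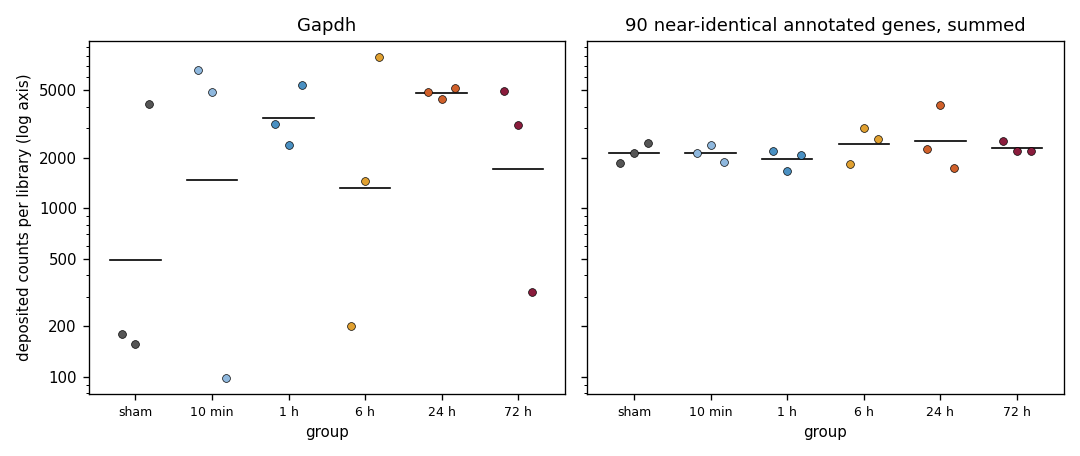
Deposited counts per library (log axis) of Gapdh (left) and of its 90 near-identical annotated genes summed (right), by group, with points for replicates 1 to 3 from left and a line at the geometric mean. Gapdh runs from 99 to 7927 counts with the spread inside groups, while the summed copies run from 1654 to 4078.

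Lactate is handled by lactate dehydrogenase, built from Ldha and Ldhb subunits, and by the monocarboxylate transporters. The exporter gene rose early and the heart subunit fell late. Slc16a3 encodes MCT4, the low-affinity transporter with which glycolytic cells release lactate (ENSMUSG00000025161, GRCm38 chr11:120948480-120960868). It was 4.25, 3.94 and 5.29 CPM in sham, 3.95 to 6.57 at 10 min and 1 h, 138, 67.4 and 51.9 at 6 h, 82.5, 44.8 and 282 at 24 h, and 60.4, 71.8 and 54.4 at 72 h. From 6 h on, every library was above every sham library. The rise was 19.0-fold at 6 h (log2 4.24 ± 0.62, adjusted p = 0.000338), 30.2-fold at 24 h (log2 4.92 ± 0.64, adjusted p = 7.01e-05) and 13.8-fold at 72 h (log2 3.78 ± 0.61, adjusted p = 0.000103). Without replicate 3 at 24 h the 24 h value of Slc16a3 was log2 3.82, and without replicate 1 at 6 h the 6 h value was log2 3.72. Slc16a1 encodes MCT1, which carries lactate in or out and serves uptake in the heart. It was 240, 246 and 254 CPM in sham, 260, 227 and 172 at 24 h, which overlap, and 84.3, 80.5 and 76.8 at 72 h (log2 -1.61 ± 0.12, adjusted p = 2.19e-09). Ldhb (ENSMUSG00000030246, GRCm38 chr6:142490249-142507957) held 1487, 1377 and 1310 CPM in sham, 1314, 1245 and 1592 at 6 h, 934, 699 and 597 at 24 h, and 393, 255 and 283 at 72 h. It overlapped sham at 6 h and lay wholly below it from 24 h, with a 4.49-fold fall at 72 h (log2 -2.17 ± 0.17, adjusted p = 3.89e-09). Ldha, the subunit of skeletal muscle and most tissues, was 721, 685 and 710 CPM in sham, 883, 901 and 876 at 6 h, 930, 936 and 1040 at 24 h, and 681, 664 and 590 at 72 h. It rose by log2 0.33 at 6 h and 0.46 at 24 h (adjusted p = 0.0183 and 0.00128), while at 72 h the difference was log2 -0.13 with TMM and 0.46 with library totals. The 6 h call of Ldha was lost under 5 alternatives, among them without replicate 1 at 6 h (adjusted p = 0.0523). Ldhd, which oxidises D-lactate in mitochondria, fell from 70.9 to 73.1 CPM to 12.5 to 20.1 at 72 h (log2 -2.23).

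Of the pyruvate dehydrogenase kinases, which switch the complex off, Pdk4 rose at 6 h and was far lower again by 24 h. Pdk4 (ENSMUSG00000019577), the kinase induced by fasting, fatty acids and glucocorticoids, lies at GRCm38 chr6:5483351-5496309. Its sham libraries held 167, 133 and 106 CPM. At 10 min they held 204, 535 and 767, and at 1 h 546, 339 and 287, so that all 6 early libraries lay above all sham libraries. These early differences, log2 1.89 ± 0.51 and 1.53 ± 0.51, were not called by edgeR (adjusted p = 0.346 and 0.626), while DESeq2 called the 10 min difference (adjusted p = 0.0225). The adjusted p at 10 min ran from 0.0225 to 0.853 over the alternatives. At 6 h the libraries held 2370, 2210 and 2950 CPM, an 18.5-fold rise (log2 4.21 ± 0.56, adjusted p = 0.000149). In length-scaled terms Pdk4 then ranked second of the 38 genes, at 715 CPM per kb against 38.6 in sham. At 24 h the values were 328, 122 and 573 CPM, which overlap sham. That call (log2 1.33, adjusted p = 0.0456) was lost in 17 of the alternatives and was log2 0.74 without replicate 3 at 24 h. At 72 h all 3 libraries, with 70.1, 60.0 and 60.5 CPM, lay below all sham libraries, with log2 -1.09 (adjusted p = 0.0703). DESeq2 called this last difference (adjusted p = 0.0363).

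The other kinases followed separate courses. Pdk3 rose stepwise, from 1.26, 1.71 and 1.20 CPM in sham to 3.34, 2.82 and 2.34 at 6 h, 3.45, 4.81 and 6.50 at 24 h and 7.57, 9.29 and 10.9 at 72 h (log2 2.73 ± 0.25, adjusted p = 3.21e-08). Pdk2, the most abundant kinase in sham at 341 to 394 CPM, fell to 140 to 243 at 24 h and 64.2 to 101 at 72 h (log2 -2.25 ± 0.18, adjusted p = 6.25e-09). Pdk1 was 158 to 168 CPM in sham, overlapped it at 24 h, and was 69.5 to 73.7 at 72 h (log2 -1.18). The catalytic subunit genes of the complex fell at 72 h: Pdha1 from 767 to 835 CPM to 287 to 343 (log2 -1.32) and Pdhb from 822 to 886 CPM to 242 to 316 (log2 -1.63). At 24 h Pdha1 held 808, 514 and 542 CPM, which overlap sham, and 15 alternatives lost its 24 h call. The mitochondrial pyruvate carrier is made of Mpc1 and Mpc2. Mpc2 fell from 393 to 406 CPM to 113 to 167 (log2 -1.57 ± 0.15, adjusted p = 3.06e-08). Mpc1 fell by 1.37 on the log2 scale but is uncertain as a single gene, because the annotated processed pseudogene Mpc1-ps, at least 95% identical to it, held 3024 to 3499 counts in sham against 1042 to 1090 for Mpc1. Mpc1-ps, named after its counts were seen, changed by log2 -1.42 at 72 h.

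**Figure D3:**
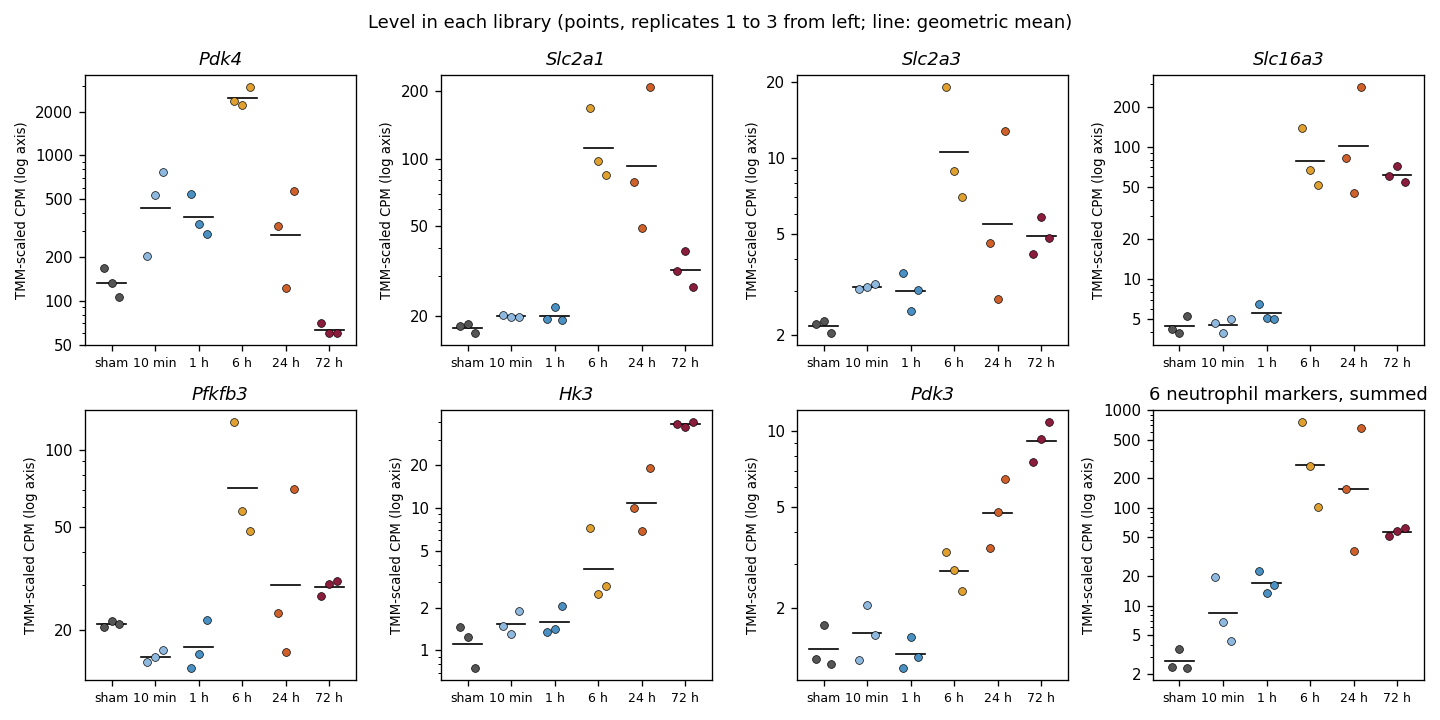
TMM-scaled CPM (log axes) in each library of 7 genes and of 6 neutrophil markers summed, by group, with points for replicates 1 to 3 from left and a line at the geometric mean. Pdk4 peaks at 6 h with 2210 to 2950 CPM and falls to 60.0 to 70.1 at 72 h, while Hk3 and Pdk3 are highest at 72 h. Replicate 1 at 6 h and replicate 3 at 24 h are the highest of their groups for Slc2a1, Slc2a3, Slc16a3, Pfkfb3 and the neutrophil markers.

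Inside the 6 h and 24 h groups, several genes followed the order of the neutrophil markers. The neutrophil sum was 757, 269 and 103 CPM in replicates 1 to 3 at 6 h, and 157, 36.1 and 663 at 24 h. Slc2a1, Slc2a3, Pfkfb3, Pgam1 and Slc16a3 had the same order of replicates in both groups, which is 5 of 38 genes. Of these, Pgam1 was not called at 6 h. The share of all genes with this order was not computed. Pdk4 did not at 6 h, where replicate 3, with the fewest neutrophil marker reads, was the highest at 2950 CPM. With 3 libraries a group this order is a description, and the part of neutrophils in the levels was not tested.

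The start regions of the genes were searched for the letters ACGTG, the core to which hypoxia-inducible factors bind. The search was prompted by Slc2a1, Slc16a3, Pfkfb3 and Ldha, all called higher at 6 h. Without replicate 1 at 6 h, Pfkfb3 and Ldha lost that call, as did Hk1, Hk3 and Pfkfb4 among the other genes counted below. The 250 bases before each RefSeq start (GRCm38.p6) were searched on both strands, where ACGTG and its reverse complement CACGT overlap in the palindrome CACGTG, a motif that other factors also bind. Windows were found for 36 of 38 genes, not for Slc2a3 and Slc2a4. Among all 27025 genes with a window, 18.5% hold these letters in at least 1 window. That share was not limited to genes that passed the count filter, so it is no matched background for the 38 genes. They occur in 17 of the 36 genes, in 6 of the 10 that rose at 6 h and have a window, and in 11 of the other 26. Several genes have more than 1 start and therefore more chances of a match. A match is a description of letters and not of binding. The 6 are shown as 30-base stretches around the match nearest the start, 5′ to 3′ on the gene's strand, with the match in capitals. Ldha is shown as the whole window, free of annotated exons, since it holds 3 separate matches.
Slc2a1, chr4:119108696-119108725, plus strand: agtcccgccccggACGTGctccccaggccc
Slc16a3, chr11:120949037-120949066, plus strand: gtgACGTGcgcgggggACGTGccgcgcgac
Pfkfb3, start nearer the gene's end, chr2:11502126-11502155, minus strand: cacccttctctcCACGTGaaagggggctgg
Pfkfb3, start farther upstream, chr2:11553973-11554002, minus strand: cctccgcgccgtgACGTGccaagctgtgac
Pdk3, chrX:93832187-93832216, minus strand: acgcgcgccgcgtACGTGcggcggcagatc
Hk3, chr13:55021525-55021554, minus strand: tactacattttgaCACGTtgcctagttcaa
Ldha, chr7:46845554-46845803, plus strand: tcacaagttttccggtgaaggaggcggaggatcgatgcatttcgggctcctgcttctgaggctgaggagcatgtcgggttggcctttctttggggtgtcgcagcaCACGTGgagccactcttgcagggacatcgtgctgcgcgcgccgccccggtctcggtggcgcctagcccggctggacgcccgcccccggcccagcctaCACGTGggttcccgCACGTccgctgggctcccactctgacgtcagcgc
The match nearest the start lies 36 bases before it in Slc2a1, 14 in Slc16a3, 52 and 60 in the 2 starts of Pfkfb3, 34 in Ldha, 53 in Pdk3 and 156 in Hk3. Annotated exons reach into some of these windows. The window of the farther upstream Pfkfb3 start holds 148 exon bases, and its printed stretch lies within them. The matches of Slc2a1 and Pdk3 span the annotated 5′ ends of these genes, at 119108711 and 93832201. Pdk4, Pfkp, Pfkfb4 and Hk1 also rose at 6 h and have no such letters in their windows. Genes that fell hold the letters too: 9 of the 21 genes lower at 72 h with a window hold them, among them Pfkm and Hk2, while their counterparts Pfkp and Hk1 do not. The windows of the pair Pgam1 and Pgam2 are shown whole as an example with and without the letters: Pgam1 holds 1 match, 114 bases before the start, and Pgam2 holds none.
Pgam1, chr19:41911621-41911870, plus strand: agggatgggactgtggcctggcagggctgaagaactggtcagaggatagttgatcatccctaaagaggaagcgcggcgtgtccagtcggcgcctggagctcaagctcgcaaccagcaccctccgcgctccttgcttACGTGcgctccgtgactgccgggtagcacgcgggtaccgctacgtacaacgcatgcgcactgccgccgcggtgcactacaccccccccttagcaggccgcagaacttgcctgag
Pgam2, chr11:5803797-5804046, minus strand: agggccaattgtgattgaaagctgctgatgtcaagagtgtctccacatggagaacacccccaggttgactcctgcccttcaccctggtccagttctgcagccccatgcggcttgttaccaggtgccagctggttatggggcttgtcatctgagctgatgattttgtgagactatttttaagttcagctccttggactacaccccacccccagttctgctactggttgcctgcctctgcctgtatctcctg

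Forms listed as muscle or heart forms were then set against a counterpart as a ratio per length within each library. Such a ratio does not depend on library scaling. The listing is loose for some pairs: Ldha, a counterpart here, is also the subunit of skeletal muscle. In all 13 pairs the ratio differed among the 6 groups (F statistic with group labels permuted 100000 times, two-sided, adjusted p from 6.5e-05 to 0.00486 over the 13 pairs). The pairs were chosen with earlier results of these data known, so these p-values describe the pairs and are not an independent test. Over the time course 78.4% of all single genes differed too. At 72 h the ratio was lower than in every sham library in all 3 libraries of 12 pairs. No such count was made over other pairs of genes, and 66.4% of all genes were called at 72 h. With 3 libraries against 3 an exact permutation test cannot go below p = 0.10, and each of these 12 pairs reached it. The ratio Ldhb/Ldha was 4.35, 4.23 and 3.89 in sham, 3.14, 2.92 and 3.83 at 6 h, 2.12, 1.57 and 1.21 at 24 h, and 1.22, 0.809 and 1.01 at 72 h. The 72 h ratios per length thus lay on both sides of 1, while mean CPM without length scaling was 310 for Ldhb and 645 for Ldha. Where a ratio stands relative to 1 depends on the exon lengths used, and its change between groups does not. The ratio Eno3/Eno1 went from 25.1, 27.4 and 24.5 in sham to 3.74, 2.18 and 2.61 at 72 h. The ratio Pgam2/Pgam1 went from 27.3, 27.5 and 22.7 to 3.76, 2.39 and 2.81. Slc16a1/Slc16a3 had the greatest fall by 6 h, from 67.4, 74.5 and 57.4 in sham to 1.73, 3.81 and 4.44 at 6 h and 1.68, 1.35 and 1.69 at 72 h, 42.2-fold lower than in sham on average. Slc2a4/Slc2a1 went from 23.5, 21.6 and 22.9 to 1.52, 3.18 and 4.19 at 6 h, and in replicate 3 at 24 h, at 0.521, Slc2a1 was the more abundant.

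The remaining pairs turned at different times. The 6 h libraries already lay below all sham libraries in 10 pairs, again without a count over other pairs of genes. Among these, Pfkm/Pfkp fell from 73.9, 89.2 and 75.6 to 20.6, 32.7 and 25.7, whereas Pfkm/Pfkl went from 18.1, 19.4 and 16.1 to 12.8, 12.5 and 13.2. Pfkfb2/Pfkfb3 was 2.12, 1.64 and 1.78 in sham and 0.0934, 0.313 and 0.352 at 6 h, then 1.03, 1.24 and 0.123 at 24 h, a group whose libraries disagreed. Hk2/Hk1 had the smallest fall at 72 h among the 12 pairs, from 2.75 to 2.86 in sham to 1.23 to 1.39 at 72 h. Pdk2/Pdk3 went from 247, 182 and 226 in sham to 10.8, 5.59 and 5.32 at 72 h. Pdk4/Pdk1 was the exception. It was 2.27, 1.76 and 1.48 in sham, 27.4, 28.4 and 41.9 at 6 h, and 2.12, 1.81 and 1.93 at 72 h, where it overlapped sham. Aldoa/Aldoc was lower at 72 h by 4.30 log2 units but rests on the few Aldoc counts given above.

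**Figure D4:**
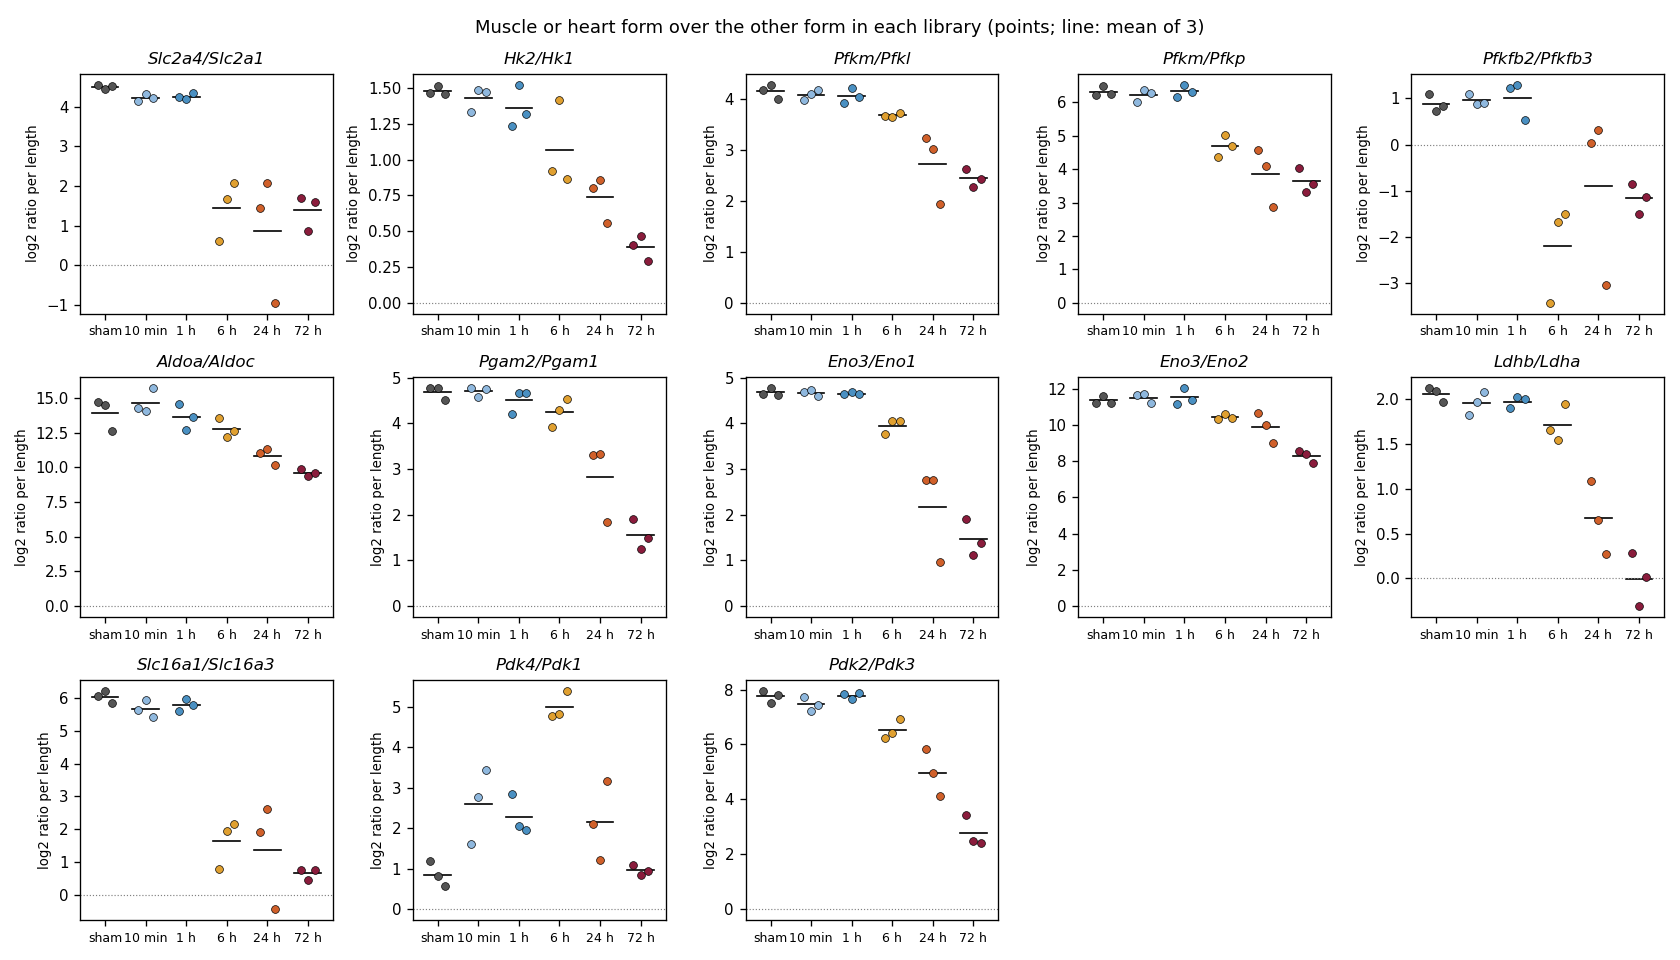
Log2 ratio per length of the form listed as muscle or heart form to its counterpart in each library for 13 pairs, by group. Points are replicates 1 to 3 from left, with a line at the mean and a dotted line at equal levels per length. Ldhb/Ldha ends near the dotted line at 72 h, and Pdk4/Pdk1 peaks at 6 h.

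The 14 genes called lower at 24 h were also called lower at 72 h. Among the 14, the 24 h call of Pdha1 was lost under 15 alternatives. Hk1 and Pfkl were called higher at 24 h and lower at 72 h, and 6 more were called lower at 72 h but not at 24 h: Hk2, Gpi1, Tpi1, Pkm, Slc16a1 and Pdk1. With library totals the 72 h calls of Hk2, Slc16a1 and Pdk1 held, those of Gpi1 and Tpi1 were lost, and Hk1, Pfkl and Pkm turned to higher values as given above. Their falls stood beside that of the cardiomyocyte markers. Relative to the sham mean, the cardiomyocyte sum was 33.2%, 25.5% and 26.7% in the 72 h libraries. Ldhb was 28.2%, 18.3% and 20.3%, Slc2a4 25.5%, 17.5% and 20.4%, Pfkm 30.8%, 20.7% and 23.4%, and Hk2 36.6%, 38.1% and 31.0%. The share of these falls that goes with the markers was not tested. Replicate 1 was the highest of the 72 h group for the cardiomyocyte sum and for Ldhb, Slc2a4 and Pfkm.

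**Figure D5:**
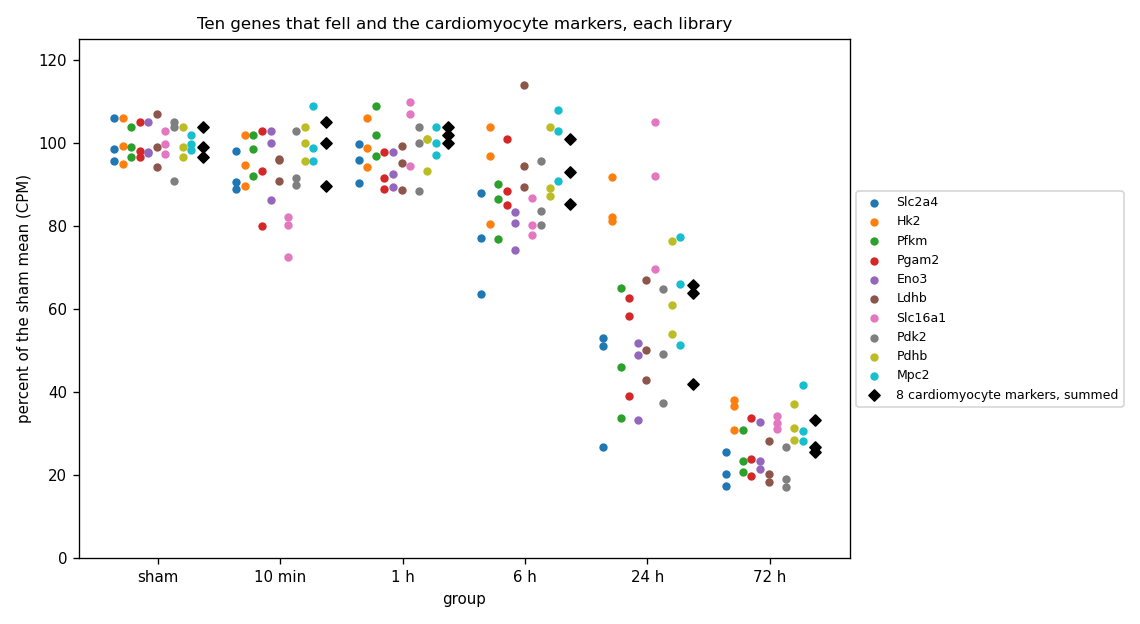
Level of 10 genes that fell by 72 h (coloured points) and of 8 cardiomyocyte markers summed (black diamonds) in each library, as percent of the sham mean of CPM, by group. At 72 h the markers stand at 25.5% to 33.2%, with Slc2a4 at 17.5% to 25.5% and Hk2 at 31.0% to 38.1%.

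Between consecutive late times, which do not use the sham libraries, 5 genes were higher and 13 lower at 24 h than at 6 h, beside 14.2% and 13.7% of all genes, or 27.8% in all. With library totals this split was 12 higher and 8 lower. Pdk4 fell 7.36-fold (log2 -2.88 ± 0.53, adjusted p = 0.00159), or 11.2-fold without replicate 3 at 24 h. Eno1 rose 2.07-fold, or by log2 0.53 in place of 1.05 without replicate 3 at 24 h. Without that library Pdk3 was no longer called (log2 0.55, adjusted p = 0.101), while Slc2a1 (log2 -0.87), Slc2a3 (log2 -1.66) and Pfkfb3 (log2 -1.97) were called lower. At 72 h against 24 h, 4 genes were higher and 26 lower, beside 24.4% and 26.1%, or 50.5% in all. The 4 were Hk3 (log2 1.71), Pfkfb4 (0.77), Eno2 (0.79) and Pdk3 (0.91). Slc2a1 fell 3.43-fold over this step (log2 -1.78 ± 0.41, adjusted p = 0.00237), or by log2 -0.98 without replicate 3 at 24 h, and Pdk4 fell 5.37-fold (log2 -2.42), or 3.56-fold without it. Eno1 was called higher at 72 h than at 24 h only when that library was left out (log2 0.31, adjusted p = 0.0122, against -0.21 with it).

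Neighbouring pathways were read from 5 further lists of 44 genes in the same comparisons. Beside the counts that follow, 34.2% of all genes were higher and 32.2% lower at 72 h. Of 7 pentose phosphate genes, which make NADPH and ribose, 5 were higher and 1 lower at 72 h. Tkt, transketolase, went from 21.3 ± 1.68 CPM (SD, n = 3) in sham to 92.3 ± 6.16 at 72 h (log2 2.11, edgeR adjusted p = 6.4e-10). G6pdx, the first enzyme of that pathway, went from 6.03 ± 0.283 to 35.9 ± 2.49 CPM (log2 2.57), and Rpia fell by 0.39 on the log2 scale. Of 13 glycogen genes, 2 were higher and 10 lower. Pygm, the muscle glycogen phosphorylase, fell from 1079 ± 80.9 to 254 ± 55.7 CPM (log2 -2.09), Gbe1, the branching enzyme, fell by 0.94, and Pygl, the liver form, rose by log2 2.36. All 6 further genes of the pyruvate dehydrogenase complex and its phosphatases were lower at 72 h, among them Pdhx (log2 -1.42) and Dld (log2 -1.33). Of 12 genes of redox shuttles and gluconeogenic steps 10 were lower, among them Got2 (log2 -1.90) and Mdh2 (log2 -1.77), and Pck2 was higher (log2 0.99). Of 5 tested transporter partners and brakes 1 was higher and 3 lower. Bsg, the chaperone of MCT1 and MCT4, fell from 1317 ± 43.6 to 554 ± 43.6 CPM (log2 -1.25), and Emb, the other chaperone, rose from 1.92 ± 0.00577 to 21.4 ± 2.29 CPM (log2 3.47).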

How the data were processed

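The authors deposited raw read counts per Ensembl gene and FPKM for each library. Per the submitters' processing notes, reads were trimmed with cutadapt 1.18, aligned with HISAT2 2.1.0 to mm10 and counted with featureCounts; the use of strand is not given in the sources used here. Exons of Pfkm, Pfkfb2 and Aldoa also overlap genes on the other strand, each with fewer counts than the member. Per the labels' protocols, RNA was selected by oligo(dT). The deposited FPKM equal the counts over an exon length and the library total, in 2 columns at 6 h with replicates 2 and 3 exchanged, which was corrected here. Symbols and positions come from GENCODE M21 (GRCm38), and promoter sequences from RefSeq.

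Counts were fitted in R 4.3.3 with edgeR 4.0.16 (filterByExpr, TMM, robust quasi-likelihood, 1 mean per group, all 18 libraries), with Benjamini-Hochberg adjustment over 16311 genes. SE is the log2 fold change over the root of F. The alternatives were other scalings, other filters, DESeq2 1.42.0, the replicate block, only the 6 libraries compared, and each library left out. Pair ratios used counts plus 0.5 over exon length. The fit was tested on simulated data. Replicates differed beyond counting noise (chi-square per degree of freedom at least 6.15). The 38 genes, the lists and the pairs were chosen with earlier results of these data known. Any of the 38 may be named, and of each further list the 2 called genes with the smallest adjusted p in each direction at 72 h.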

Additional observations from a re-analysis of the deposited data

How the results depend on the processing

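Of the values of single genes under the alternatives, 6341 kept their sign and their side of the threshold, 140 lost a call and 63 gained one. Another 90 turned sign without being called in either fit, and 6 turned sign and were called in at least 1 fit. With library totals, 72 h differences turned to log2 0.17 for Hk1, 0.28 for Pfkl, 0.50 for Pgk1, 0.30 for Pkm and 0.46 for Ldha. The members lower at 6 h then numbered 3, and those higher and lower at 24 h against 6 h numbered 12 and 8. Mitochondrially encoded reads made up 23.83 to 26.13% of counts in sham and 8.41 to 10.53% at 72 h. Their part in these shifts was not tested. Without replicate 3 at 24 h, Eno1 at 72 h against 24 h was log2 0.31, and its values ran from -0.42 to 0.31 as single libraries were left out. With only the 6 libraries compared, 3 members were lower at 10 min, 5 were lower at 6 h, 0 were higher and 3 lower at 24 h against 6 h, and 2 were higher at 72 h against 24 h; 25 of the 121 calls were then lost. DESeq2 called 1 member higher at 10 min and lost 1 of the 121 calls. Leaving out 1 library gave 6 to 12 members higher and 1 to 4 lower at 6 h, 11 to 16 and 12 to 17 at 24 h, 9 to 11 and 20 to 23 at 72 h, 2 to 6 and 12 to 15 at 24 h against 6 h, and 2 to 6 and 25 to 27 at 72 h against 24 h. The count higher at 6 h was 6 without replicate 1 at 6 h, and the count lower at 6 h became 4 on dropping 24 h replicate 3, or 2 on dropping 24 h replicate 1. The count higher at 24 h against 6 h fell to 3 when 6 h replicate 2 was dropped and to 2 when 6 h replicate 3 was. The count higher at 72 h against 24 h was 2 without replicate 1 at 24 h. The cause was not tested. The 72 h ratio differences kept their sign in each of these runs except that of Pdk4/Pdk1, which ran from -0.04 to 0.27 and was -0.04 without sham replicate 3. Replicate numbers did not pair the libraries: deviations of same-numbered libraries had a mean correlation of -0.007 over 45 pairs, and 4 of 18 libraries correlated best with their own number. With the replicate block, 2 members were lower at 6 h and 120 of the 121 calls were kept. Depth limits Aldoc, with 0 to 36 counts per library.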
